A study of Mus musculus with 30 samples.

Results

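A history of obesity was examined across 2 diets at once, as the mean of the differences between formerly obese and lean mice on control diet and between formerly obese-HFD and lean-HFD mice after 48 h of high-fat diet (HFD). The comparison used 24 of the 30 arrays of gonadal white adipose tissue (gWAT), 12 from mice with a history of obesity and 12 from mice without. Of 41345 probe sets, 127 passed the test of the averaged difference, and 124 of these moved in the same direction under both diets without following Alb, the hepatocyte product albumin, from array to array. The 124 probe sets are what is described here.

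All mice were male wild type C57BL6/J mice aged 35 weeks, with 6 arrays in each group. Formerly obese mice had HFD (58% of energy as fat, rich in sucrose) for 20 weeks and then a low-fat control diet (10.5% of kcal from fat) for the next 7 weeks. Lean mice stayed on the control diet for 27 weeks. Formerly obese-HFD mice had the 20 and 7 weeks of the formerly obese mice and then HFD for another 48 h, and lean-HFD mice had 27 weeks of control diet followed by their first 48 h of HFD. Obese mice, which had HFD for 27 weeks, took no part in the averaged comparison and are given for their levels only. Formerly obese mice differed from lean mice both in the 20 weeks of HFD and in the change of diet that followed, and the effects of these cannot be told apart.

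Visceral fat of obese rodents takes up macrophages, T cells and natural killer (NK) cells, and macrophages gather around dying adipocytes in crown-like structures where they clear lipid. Adipocytes, fibroblast-like progenitors and endothelium share the tissue with these cells, so bulk RNA adds up all of them.

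Levels are the deposited log2 values of the arrays, and each difference is a log2 difference ± its SE from limma. A probe set was called when its Benjamini-Hochberg adjusted p over all probe sets was under 0.10, its fold over 1.3 and its group mean over 16 on the linear scale in at least 1 of the 4 groups. Only called genes are said to have risen or fallen. In bulk tissue, fewer cells of a type and less RNA per cell cannot be told apart. The labels number the arrays of a group as replicates without naming the animals, so p-values rest on the spread from array to array.

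The arrays were alike in scale, with medians from 4.85 to 4.97. Their normalisation sets all arrays to 1 distribution, so like medians say little about array quality. Correlations ran from 0.960 to 0.984 within groups (median 0.975) and from 0.953 to 0.984 between groups (median 0.970). The adipocyte hormone Adipoq lay between 11.46 and 11.89 in the formerly obese and formerly obese-HFD arrays. In the lean and lean-HFD arrays it lay between 11.62 and 11.84. This single gene shows adipocyte RNA on the arrays and does not test which fat depot they came from. Liver transcripts differed strongly between arrays. Alb ran from 6.70 to 12.33, and the 4 arrays above 11 were all from mice without a history of obesity, namely lean 4 (11.16) and lean-HFD 1, 2 and 4 (11.77, 12.08 and 12.33).

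The averaged comparison called 127 probe sets (0.307% of all tested), 76 of them higher (0.184%) and 51 lower (0.123%) in mice with a history of obesity. All 127 had the same sign under both diets, which selection by the averaged difference favours, so the sign criterion removed none. Of the 124 that remained after the sign and Alb criteria, 76 rose and 48 fell. They had a median fold of 1.48, and 11 exceeded 2-fold. One gene symbol was attached to 87 of them, several symbols to 9 and none to 28. Counted with 1 probe set for each gene, 42 of 22180 genes rose (0.189%) and 31 fell (0.14%) before the Alb criterion, which set aside 1 of those that fell.

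The number of calls changed with the treatment of Alb. With Alb as a covariate in the fit, 4 probe sets were called (Nmb, Lyz1, Retnla and the uncharacterised 4933409K07Rik). Without the 4 arrays above 11, a fit on 20 arrays of which 3 were lean-HFD, limma called 0 (smallest adjusted p 0.199, and 3355 probe sets with an unadjusted p under 0.05). In both settings all 124 kept their sign, which says little about Alb because these probe sets had been kept for a low correlation with it. The difference was 0.70 to 1.25 times its reported size with the covariate (median 95.7%) and 0.677 to 1.19 times without the 4 arrays (median 94.6%), and the median SE was 1.15 and 1.16 times the reported one.

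Nmb, which encodes the bombesin-like neuropeptide neuromedin B, had the smallest p of the comparison. Its values were 8.71 to 9.06 (median 8.85) in formerly obese mice and 7.97 to 8.43 (median 8.14) in lean mice. After 48 h of HFD they were 8.98 to 9.51 (median 9.19) in formerly obese-HFD mice, against 8.22 to 9.24 (median 8.40) in lean-HFD mice. Every formerly obese array lay above every lean array, and lean-HFD 3 was the only lean-HFD array that reached into the range of the formerly obese-HFD mice. Nmb rose 1.64-fold (0.71 ± 0.10, adjusted p = 0.00883), by nearly the same amount on control diet (0.72) and under HFD (0.70). Its receptor Nmbr did not pass (-0.09 ± 0.04).

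Vcam1, the endothelial adhesion molecule that catches leukocytes by their alpha-4 integrins, rose 1.66-fold (0.73 ± 0.14, adjusted p = 0.0449). Formerly obese mice had 7.27 to 7.91 (median 7.57) and lean mice 6.65 to 6.96 (median 6.85), with no overlap. Formerly obese-HFD mice had 6.69 to 8.24 (median 7.62) and lean-HFD mice 6.34 to 7.24 (median 6.83). There the groups overlapped, with formerly obese-HFD 6 and, narrowly, formerly obese-HFD 3 below the highest lean-HFD array. Vcam1 was the only member called among the 17 measured leukocyte adhesion genes, whose median difference was 0.22 beside -0.01 over all genes. Itga4, the alpha-4 chain that binds Vcam1, was measured at 0.37 ± 0.20 and Icam1 at 0.32 ± 0.12, neither past the test.

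**Figure D1:**
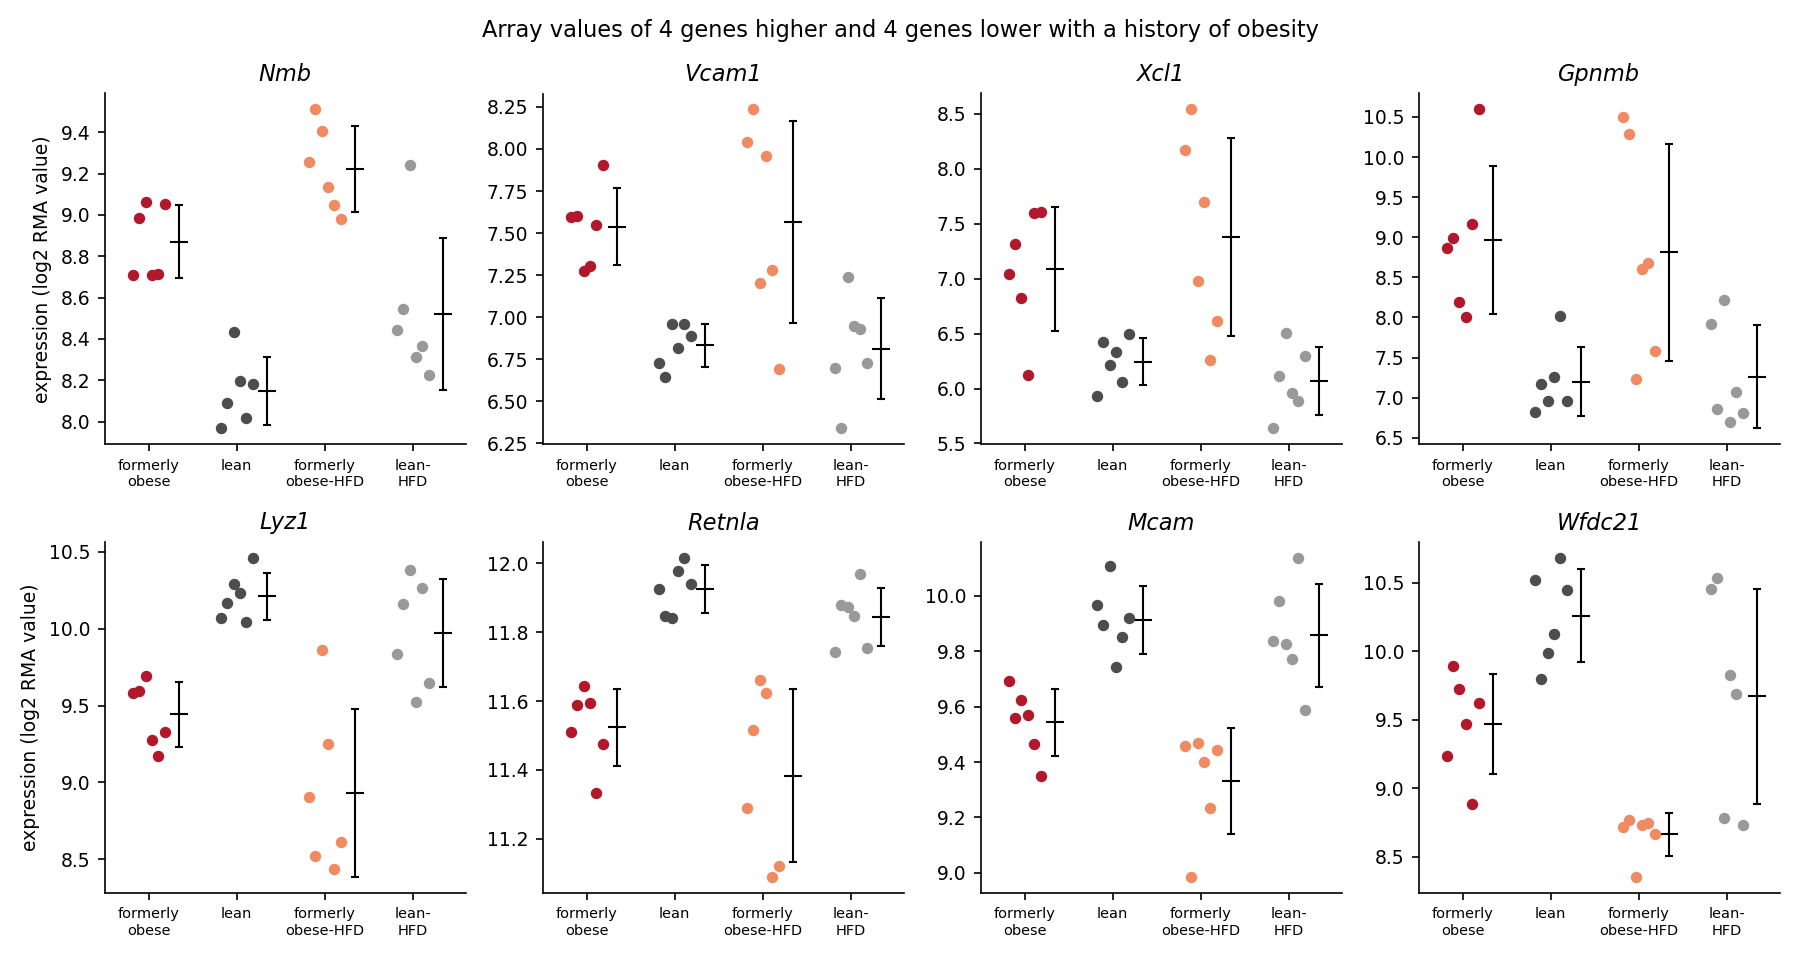
Log2 RMA value of each array for Nmb, Vcam1, Xcl1 and Gpnmb (top) and Lyz1, Retnla, Mcam and Wfdc21 (bottom) in the 4 groups, 6 arrays each, with the mean and SD as a bar beside the points. Retnla and Mcam separate the groups fully under both diets, while Xcl1 and Gpnmb overlap and spread widely in formerly obese-HFD mice.

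Xcl1, the chemokine that NK cells and CD8 T cells release to attract cross-presenting dendritic cells, lay at 6.12 to 7.61 (median 7.18) in formerly obese mice and 5.94 to 6.50 (median 6.28) in lean mice, and at 6.26 to 8.54 (median 7.34) in formerly obese-HFD mice and 5.64 to 6.50 (median 6.03) in lean-HFD mice. Formerly obese 4 lay inside the lean range and formerly obese-HFD 5 inside the lean-HFD range, and all other arrays with a history lay above. Xcl1 rose 2.11-fold (1.08 ± 0.22, adjusted p = 0.0547), and Xcr1, the receptor for Xcl1 on those dendritic cells, rose less, 1.33-fold (0.42 ± 0.08, adjusted p = 0.0561).

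Cxcl16, a chemokine and scavenger receptor for oxidised lipid, rose 1.58-fold (0.66 ± 0.13, adjusted p = 0.0449). Its levels were 7.25 to 7.71 (median 7.60) in formerly obese mice, 6.72 to 7.40 (median 7.01) in lean mice, 7.0 to 8.41 (median 7.76) in formerly obese-HFD mice and 6.55 to 7.22 (median 6.92) in lean-HFD mice. The groups overlapped in both diets. Its receptor Cxcr6 was at 0.38 ± 0.13 (adjusted p = 0.232). Of 22 measured chemokine and receptor genes 3 rose (Xcl1, Cxcl16 and Xcr1), none fell and 19 did not pass, with a median of 0.18. Ccl5 (1.0 ± 0.26) and Ccl3 (0.95 ± 0.29) had large differences that missed the threshold, and the monocyte attractant Ccl2 (0.05 ± 0.29) and its receptor Ccr2 (-0.16 ± 0.12) were near 0.

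Of 16 measured genes of NK and cytotoxic lymphocytes, 3 rose and none fell, with a median of 0.51. Besides Xcl1 these were Klrc1, which encodes the inhibitory receptor NKG2A (0.76 ± 0.16, adjusted p = 0.0621), and Gzma, the protease granzyme A of cytotoxic granules (0.72 ± 0.16, adjusted p = 0.0747). Klrc1 lay at 4.90 to 5.49 (median 5.19) in formerly obese mice, against 3.76 to 4.93 (median 4.47) in lean mice, and at 4.83 to 6.41 (median 5.34) in formerly obese-HFD mice, against 4.22 to 5.04 (median 4.80) in lean-HFD mice. Gzma lay at 5.07 to 6.15 (median 5.39) in formerly obese mice, against 4.40 to 5.16 (median 4.83) in lean mice, and at 5.03 to 6.44 (median 5.49) in formerly obese-HFD mice, against 4.43 to 5.35 (median 4.74) in lean-HFD mice. All groups overlapped for both genes. Nkg7 (0.73 ± 0.19), Klrk1 (0.70 ± 0.18) and Klrd1 (0.69 ± 0.20) had differences of similar size without passing, whereas the NK transcription factors Tbx21 (-0.12 ± 0.08) and Eomes (0.09 ± 0.09) were near 0. The mean level of the list ran from 5.18 to 5.69 in formerly obese mice and 4.94 to 5.13 in lean mice, with no overlap, and from 5.06 to 6.26 in formerly obese-HFD mice and 4.95 to 5.19 in lean-HFD mice. In lean mice the list, Klrc1 and Gzma thus lay around or below the array medians of 4.85 to 4.97, and differences of dim probe sets are understated. Whether Tbx21 and Eomes were bright enough to show a change was not tested.

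None of 17 T cell genes and none of 15 B and plasma cell genes in the lists passed. Outside the lists, a probe set of the T cell receptor segment Trav9d-3, chosen after its value was seen, rose 2.19-fold (1.13 ± 0.26, adjusted p = 0.0823), and its sequence is shared in part with related segments. All 17 (median 0.28) and all 15 (median 0.30) had positive differences, led by Il7r (1.13 ± 0.35) and Cd3g (0.87 ± 0.29) for T cells and by Jchain (0.76 ± 0.46) and Mzb1 (0.67 ± 0.29) for plasma cells. Over all 22180 genes, 10240 differences were positive and 11940 negative. Genes within a list vary together between animals, so the signs counted within these and all other lists are not independent of each other.

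The largest differences among the 124 belonged to 2 probe sets for which the annotation used here gives no gene. Probe set 17284512 was 6.51 to 11.59 (median 8.78) in formerly obese mice and 3.80 to 8.06 (median 5.92) in lean mice, and 7.75 to 11.28 (median 9.21) in formerly obese-HFD mice and 3.90 to 9.15 (median 6.0) in lean-HFD mice. It rose 8.61-fold (3.11 ± 0.61, adjusted p = 0.0494), though values inside each of the 4 groups spanned more than 3 log2 units. Probe set 17459377 rose 6.51-fold (2.70 ± 0.57, adjusted p = 0.0617).

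Gpnmb, a glycoprotein of lipid-loaded macrophages, was the named gene with the largest rise, 3.17-fold (1.66 ± 0.35, adjusted p = 0.0617). It lay at 8.0 to 10.59 (median 8.93) in formerly obese mice, against 6.82 to 8.02 (median 7.06) in lean mice, and at 7.23 to 10.50 (median 8.64) in formerly obese-HFD mice, against 6.70 to 8.21 (median 6.96) in lean-HFD mice. Formerly obese mice overlapped lean mice through lean 5 alone. Under HFD the 6 arrays with a history split, with replicates 1 and 2 above 10 and replicates 3 and 6 below 8. Gpnmb kept its call in 20 of the 24 fits that each left out 1 array and lost it without lean 6, formerly obese-HFD 2, lean-HFD 2 or lean-HFD 5.

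Gpnmb was the single call among 17 lipid-associated macrophage genes (median 0.35). Mmp12, the macrophage elastase (2.03 ± 0.52, adjusted p = 0.119), and Atp6v0d2, a proton pump subunit (1.77 ± 0.56, adjusted p = 0.213), had larger differences than Gpnmb and missed the threshold. Nceh1, which hydrolyses cholesterol esters in macrophages, rose (0.86 ± 0.20, adjusted p = 0.0903), and so did Hpgds, the haematopoietic prostaglandin D synthase (0.83 ± 0.18, adjusted p = 0.0621). No gene was called in the lists of fatty acid synthesis (16 measured), fatty acid oxidation (18) or cholesterol synthesis and uptake (16). Nceh1 lay at 7.20 to 8.50 (median 7.54) in formerly obese mice, against 6.53 to 7.26 (median 6.68) in lean mice, and Hpgds at 6.52 to 7.75 (median 6.83), against 5.89 to 6.53 (median 6.27). Both pairs of groups overlapped.

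None of 21 general macrophage genes passed, although 20 of 21 differences were positive (median 0.34). The study's qPCR markers are part of this group. Itgax (CD11c) was at 0.82 ± 0.35 (adjusted p = 0.38), Cd68 at 0.70 ± 0.22 (adjusted p = 0.205), Adgre1 (F4/80) at 0.61 ± 0.20 (adjusted p = 0.222) and Itgam (CD11b) at -0.0049 ± 0.14 (adjusted p = 0.995). The alternatively activated macrophage markers Mrc1 (0.22 ± 0.09) and Clec10a (0.20 ± 0.10) and the cytokines Tnf (0.33 ± 0.14) and Il6 (0.02 ± 0.11) did not pass either. Il6 lay at 3.04 to 3.92 in lean mice, under 4, the log2 of the level limit, so its difference says little about change. Toll-like and C-type lectin receptor genes had 19 of 20 positive differences (median 0.27), with Tlr13 (1.29 ± 0.33), Clec4d (0.92 ± 0.29) and Clec7a (0.88 ± 0.23) at the top and no call.

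Interferon-induced genes had small positive differences. All 20 measured members had positive differences (median 0.32), and 1 passed: Irgm1, an interferon-inducible GTPase, rose 1.41-fold (0.50 ± 0.11, adjusted p = 0.0695). It lay at 6.17 to 6.94 (median 6.45) in formerly obese mice and 5.67 to 6.34 (median 6.0) in lean mice, which overlapped, and at 6.29 to 7.21 (median 6.46) in formerly obese-HFD mice and 6.0 to 6.28 (median 6.19) in lean-HFD mice, which met without overlap. Its relative Igtp was at 0.70 ± 0.18 (adjusted p = 0.129). Gbp8, a guanylate-binding protein outside the list, rose 2.03-fold (1.02 ± 0.22, adjusted p = 0.0621).

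Antigen presentation on MHC class I gained 2 calls among 14 genes (median 0.23, all 14 positive). Psmb9, an immunoproteasome subunit, rose 1.33-fold (0.41 ± 0.10, adjusted p = 0.0893), at 8.80 to 9.16 (median 8.95) in formerly obese mice and 8.46 to 8.67 (median 8.60) in lean mice, with no overlap. In formerly obese-HFD mice it lay at 8.73 to 9.65 (median 9.06) and in lean-HFD mice at 8.32 to 8.85 (median 8.76), with overlap. H2-Q5, a non-classical class I gene, rose by 0.44 ± 0.10 on the probe set with the highest mean and by 0.64 on another. The H2-Q genes are close copies of each other, so signal may be shared between them, and a probe set annotated to both H2-Q6 and H2-Q8 rose as well (0.61 ± 0.12). None of 10 MHC class II genes passed, with all 10 differences positive (median 0.30).

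The 250 bases before the RefSeq start were searched on both strands for GAAANNGAA, the shared letters of interferon-stimulated response elements. RefSeq promoters (build GRCm38.p6) were found for 56 of the 74 distinct symbols among the 124 probe sets. The letters occurred in 5 of 31 genes that rose (16.1%) and 2 of 25 that fell (8%), beside 1934 of 27025 promoters in all (7.16%). The 5 were Irgm1, Gzma, Ms4a6b, Plcxd3 and the uncharacterised 2310001H17Rik, and the 2 were Lyz1 and Tenm4. The letters GGGANNTTC of a kappa-B site occurred in 1 of 31 that rose (3.23%), 0 of 25 that fell and 3.17% of all promoters, and TTCNNNGAA, a STAT-type site, in 2 of 31 that rose (6.45%), 1 of 25 that fell (4%) and 7.18% of all. These counts are descriptions of short windows, and no binding was measured. The windows of Irgm1 and Gzma are shown because they hold matches and belong to the interferon and cytotoxic lists, whereas the windows of Xcl1 and Klrc1, the other called cytotoxic genes, hold none. They are printed with GAAANNGAA matches on either strand in capitals. In Irgm1 (chr11:48871421-48871670, minus strand), the matches began 30 and 24 bases before the start and overlapped each other, and in Gzma (chr13:113100982-113101231, minus strand) they began 96 and 66 bases before it. No match to the other letters fell in either window.
Irgm1: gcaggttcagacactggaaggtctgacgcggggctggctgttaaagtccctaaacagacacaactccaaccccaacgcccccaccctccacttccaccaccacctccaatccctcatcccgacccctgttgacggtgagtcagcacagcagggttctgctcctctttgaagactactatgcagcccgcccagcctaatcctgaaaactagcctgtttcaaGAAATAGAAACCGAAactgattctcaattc
Gzma: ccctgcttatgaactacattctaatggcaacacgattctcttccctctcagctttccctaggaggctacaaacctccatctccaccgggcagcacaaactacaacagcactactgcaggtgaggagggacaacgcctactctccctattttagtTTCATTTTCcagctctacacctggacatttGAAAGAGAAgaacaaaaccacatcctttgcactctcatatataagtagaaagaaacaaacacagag

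Stromal genes were called as well. Pdgfra, the growth factor receptor that marks adipocyte progenitors and fibroblasts, rose 1.54-fold (0.62 ± 0.11, adjusted p = 0.0374). It lay at 7.89 to 8.23 (median 8.18) in formerly obese mice and 7.07 to 7.89 (median 7.68) in lean mice, which met at their edges, and at 7.64 to 8.84 (median 8.42) in formerly obese-HFD mice and 7.27 to 7.77 (median 7.62) in lean-HFD mice, which overlapped. It was the only call among 18 progenitor and fibroblast genes (median 0.04). The matrix proteases Mmp2 (0.59 ± 0.14, adjusted p = 0.0885) and Mmp11 (0.50 ± 0.12, adjusted p = 0.0823) rose among 19 proteases and inhibitors (median 0.17).

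Other genes among the 12 largest rises of annotated genes were Slc7a15, an amino acid transporter (0.79 ± 0.15, adjusted p = 0.0449), and Ahnak2, a large scaffold protein (0.69 ± 0.15, adjusted p = 0.0686). Slc7a15 lay at 5.71 to 6.78 (median 6.38) in formerly obese mice, against 5.30 to 6.01 (median 5.64) in lean mice, and at 5.75 to 6.95 (median 6.10) in formerly obese-HFD mice, against 4.98 to 6.01 (median 5.16) in lean-HFD mice, with overlap in both diets. Several probe sets of 4933409K07Rik and Fam205a2 rose by 0.53 to 0.94. Their sequences belong to a family of close copies, some with identical values on every array, and they are not separate observations.

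Among the genes that fell, Lyz1, Retnla and Mcam had the smallest p. Lyz1, a lysozyme gene that closely resembles the macrophage gene Lyz2, lay at 9.17 to 9.69 (median 9.46) in formerly obese mice and 10.04 to 10.46 (median 10.20) in lean mice, with no overlap. It lay at 8.44 to 9.86 (median 8.76) in formerly obese-HFD mice and 9.53 to 10.38 (mean 9.97) in lean-HFD mice, where formerly obese-HFD 3 was the only array of its group to reach into the lean-HFD range. Lyz1 fell by 0.90 on the log2 scale (-0.90 ± 0.14, adjusted p = 0.00982). Lyz2 was at 0.10 ± 0.09, so the copies moved unequally on these arrays.

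Retnla, which encodes the secreted protein FIZZ1 of alternatively activated macrophages, was abundant and differed by less but with little spread. It lay at 11.33 to 11.64 (median 11.55) in formerly obese mice and 11.84 to 12.02 (median 11.93) in lean mice, and at 11.09 to 11.66 (median 11.40) in formerly obese-HFD mice and 11.74 to 11.97 (median 11.86) in lean-HFD mice. Every array with a history lay below every array without one (-0.43 ± 0.06, adjusted p = 0.00982). It was the single call among 14 genes of resident-type macrophages, of which 9 had positive differences.

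Mcam (CD146), an adhesion molecule of endothelial cells and pericytes, also separated the groups completely in both diets. It lay at 9.35 to 9.69 (median 9.56) in formerly obese mice and 9.74 to 10.11 (median 9.91) in lean mice, and at 8.99 to 9.47 (median 9.42) in formerly obese-HFD mice and 9.59 to 10.14 (median 9.83) in lean-HFD mice (-0.45 ± 0.07, adjusted p = 0.00982). None of 20 vascular and lymphatic endothelial genes passed (median -0.0024, 11 of 20 negative). Complete separation in both diets and the same direction was seen for 8 of all probe sets (0.0193%), of which 5 were among the 124: Retnla, Mcam, Tcaf1 and the predicted gene Gm10687 among those that fell, and Fgd4, a Cdc42 exchange factor, among those that rose. Tcaf1, Gm10687 and Fgd4 were named after their values were seen.

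Wfdc21 (-0.90 ± 0.18, adjusted p = 0.055), a small secreted protein of the whey acidic family, lay at 8.89 to 9.89 (median 9.55) in formerly obese mice and 9.80 to 10.68 (median 10.28) in lean mice, with a slight overlap. In formerly obese-HFD mice it lay at 8.36 to 8.77 (median 8.73) and in lean-HFD mice at 8.73 to 10.53 (median 9.76), and there lean-HFD 6 lay among the formerly obese-HFD arrays and lean-HFD 3 just above them. Masp1, a protease of the lectin pathway of complement, fell (-0.64 ± 0.14, adjusted p = 0.0621) and was the single call among 15 complement genes of the list, which does not hold the complement component C7, a gene that rose (0.57 ± 0.14, adjusted p = 0.0957). Col15a1, a basement membrane collagen, fell (-0.64 ± 0.14, adjusted p = 0.064) as the single call among 27 collagen and matrix genes, whose median was -0.12, and the basement membrane chains Col4a1 (-0.41 ± 0.10) and Col4a2 (-0.43 ± 0.12) missed the threshold.

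Ackr4, a scavenging receptor for the chemokines of lymphoid homing (-0.56 ± 0.11, adjusted p = 0.0547), Bcar3, an adaptor protein (-0.57 ± 0.12, adjusted p = 0.0621), Tenm4, a teneurin (-0.54 ± 0.11, adjusted p = 0.0617), and Ffar4 (GPR120), the receptor for long-chain fatty acids on adipocytes (-0.53 ± 0.13, adjusted p = 0.0933), completed, with the liver-type genes described next, the 12 largest falls among annotated genes taken by their probe set of highest mean. By another probe set Emp1, a membrane protein, fell as much as Ffar4 (-0.53 ± 0.09, adjusted p = 0.0246), while its probe set of highest mean stayed under the fold limit. In formerly obese-HFD mice Ackr4 lay at 5.77 to 6.47 (median 6.01), below all lean-HFD arrays at 6.51 to 7.17 (median 6.73). On control diet Ackr4 overlapped, at 5.88 to 6.84 (median 6.26) in formerly obese mice and 6.20 to 7.0 (median 6.81) in lean mice.

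Liver-type genes made up 4 of these 12 falls: Serpina1a and Serpina1b, close copies that encode alpha-1 antitrypsin, Pon1, the paraoxonase carried on high-density lipoprotein, and Ces3b, a carboxylesterase. Serpina1a lay at 6.44 to 8.02 (median 7.31) in formerly obese mice and 7.06 to 9.0 (median 8.54) in lean mice, which overlapped. It lay at 6.74 to 7.75 (median 7.27) in formerly obese-HFD mice and 7.88 to 9.34 (median 9.07) in lean-HFD mice, which did not. Serpina1a fell by 1.31 on the log2 scale (-1.31 ± 0.23, adjusted p = 0.0246), Serpina1b by 1.03 (-1.03 ± 0.18, adjusted p = 0.0301), Pon1 by 1.28 (-1.28 ± 0.31, adjusted p = 0.0955) and Ces3b by 0.91 (-0.91 ± 0.22, adjusted p = 0.0957).

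Negative differences were seen more widely among hepatocyte transcripts. Whether these had a cause in common with the 4 liver-type genes was not tested. All 20 measured hepatocyte genes had negative differences, with a median of -1.37 (-0.62 on control diet and -2.03 under HFD), and 2 of them, Serpina1a and Serpina1b, were called. The mean level of the list ran from 4.63 to 6.45 in formerly obese mice and 4.70 to 7.77 in lean mice, and from 4.79 to 6.48 in formerly obese-HFD mice and 5.48 to 9.43 in lean-HFD mice. Alb itself differed by -1.42 (-0.77 on control diet, -2.08 under HFD; exact two-sided permutation test within diet, p = 0.0248 over 853776 relabellings), and the p became 0.0513 without lean 4. All groups overlapped for Alb.

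Pearson correlations with Alb over the 24 arrays, taken within groups, were at least 0.5 in size for 935 of 41345 probe sets (2.26%) and for 3 of the 127 called. These 3 were set aside: 2 probe sets without a gene and with identical values (r = 0.82), and the pseudogene Serpina4-ps1 (r = 0.61). The 4 liver-type genes stayed under the limit, Ces3b at 0.48, Pon1 and Serpina1a and Serpina1b at 0.40. Against the mean of the hepatocyte list in place of Alb, Ces3b (r = 0.56) and Serpina1a (r = 0.52) passed 0.5 and would have been set aside. Others near the limit were a probe set of 4933409K07Rik (0.47) and probe sets of the Gm10408 family (0.45), which were higher where Alb was higher, and Gkn3 (-0.45), Bcl2l11 (-0.44), Gzma (-0.44) and Nmb (-0.42), which were higher where Alb was lower. By Spearman correlation Gzma reached -0.50 and would have been set aside. Vcam1 (-0.21), Xcl1 (-0.15), Gpnmb (-0.19), Lyz1 (-0.09) and Retnla (-0.19) were farther from it.

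With Alb in the fit the difference of Serpina1a was -1.07 ± 0.24 (limma adjusted p = 0.196), that of Pon1 -0.96 ± 0.33 (adjusted p = 0.404) and that of Ces3b -0.64 ± 0.23 (adjusted p = 0.415). That of Nmb was 0.61 ± 0.10 (adjusted p = 0.0806), that of Lyz1 -0.94 ± 0.16 (adjusted p = 0.0806) and that of Vcam1 0.65 ± 0.16 (adjusted p = 0.238). That of Gzma was 0.54 ± 0.17 (adjusted p = 0.369) and that of Gkn3 0.37 ± 0.12 (adjusted p = 0.367). Each of these differences kept its sign, and those of Gzma and Gkn3 shrank in about the same proportion as that of Pon1.

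Markers of other tissues that a dissected gonadal fat pad could hold were examined in the same way. None of 13 mesothelial genes (median 0.17), 14 epididymal genes (median 0.0038), 12 skeletal muscle genes (median 0.04) or 6 lymph node stroma genes (median 0.15) passed. All 13 genes of motile cilia had positive averaged differences (median 0.51), which came from the HFD comparison (median 1.18) and not from the control diet comparison (median -0.11), and none passed. The mean level of the cilia list ran from 4.96 to 7.14 in formerly obese-HFD mice and 4.43 to 5.50 in lean-HFD mice, with overlap. Whether any of these tissues had a part in the differences of immune genes was not tested.

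**Figure D2:**
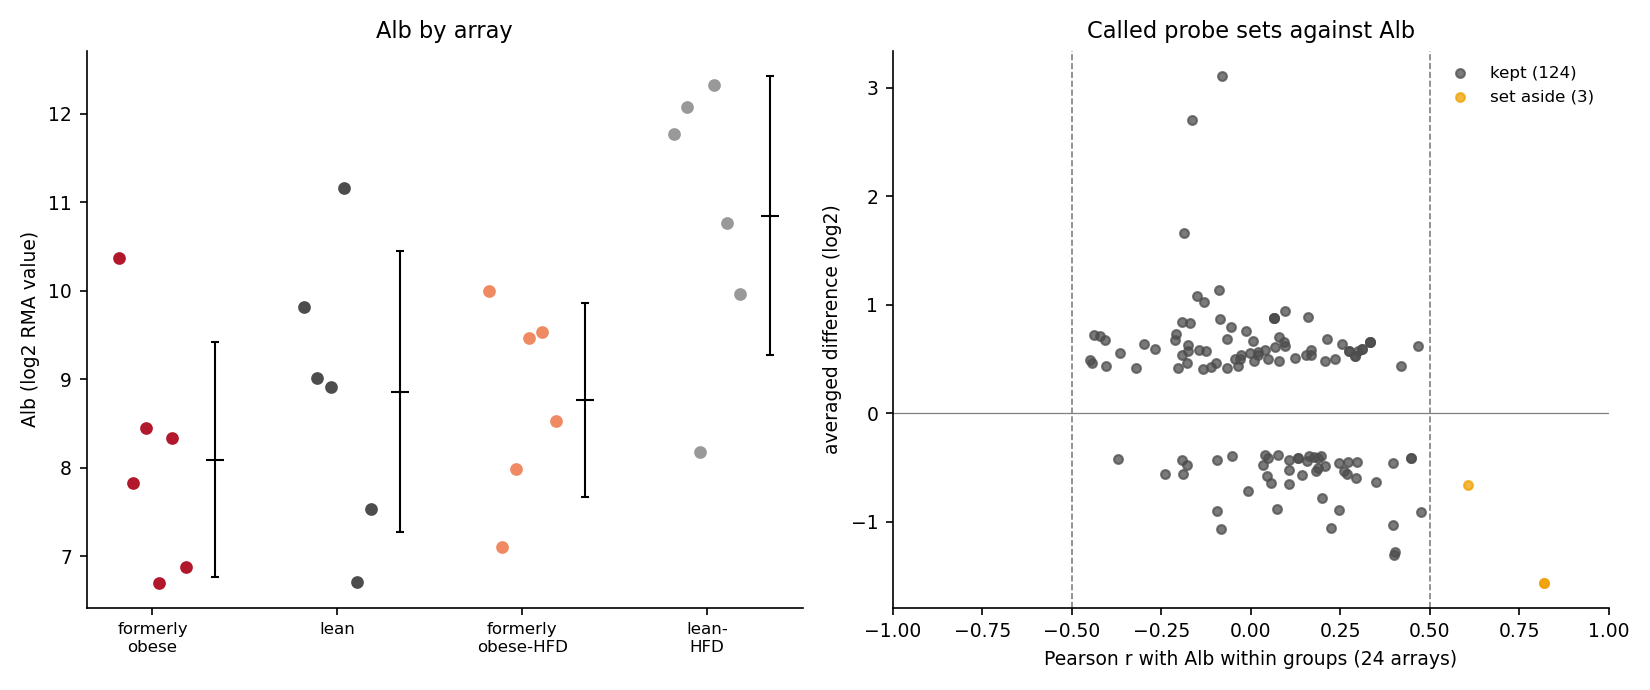
Left, log2 RMA value of Alb on each of the 24 arrays with the mean and SD of each group of 6. Right, averaged difference (log2) of the 127 called probe sets against their Pearson r with Alb within groups, with dashed lines at 0.5 in either direction. The 4 arrays above 11 are lean or lean-HFD arrays, and 3 probe sets lie beyond the dashed lines.

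Genes of the adipocyte itself had small differences. None of 22 mature adipocyte genes passed, although 21 of 22 differences were negative (median -0.20). Plin4, a lipid droplet coat protein, had an adjusted p of 0.0823 with a difference of -0.31 ± 0.07, under the fold limit. Plin1 was at -0.25 ± 0.08, Lep, the satiety hormone, at -0.33 ± 0.16 and Adipoq at -0.06 ± 0.05. Differences of the 21 genes of branched-chain amino acid breakdown were all negative and small (median -0.14), none past the test. The lysosome list had 20 of 20 positive differences (median 0.15) and no call, and the cell cycle list 17 of 19 (median 0.16) and no call.

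**Figure D3:**
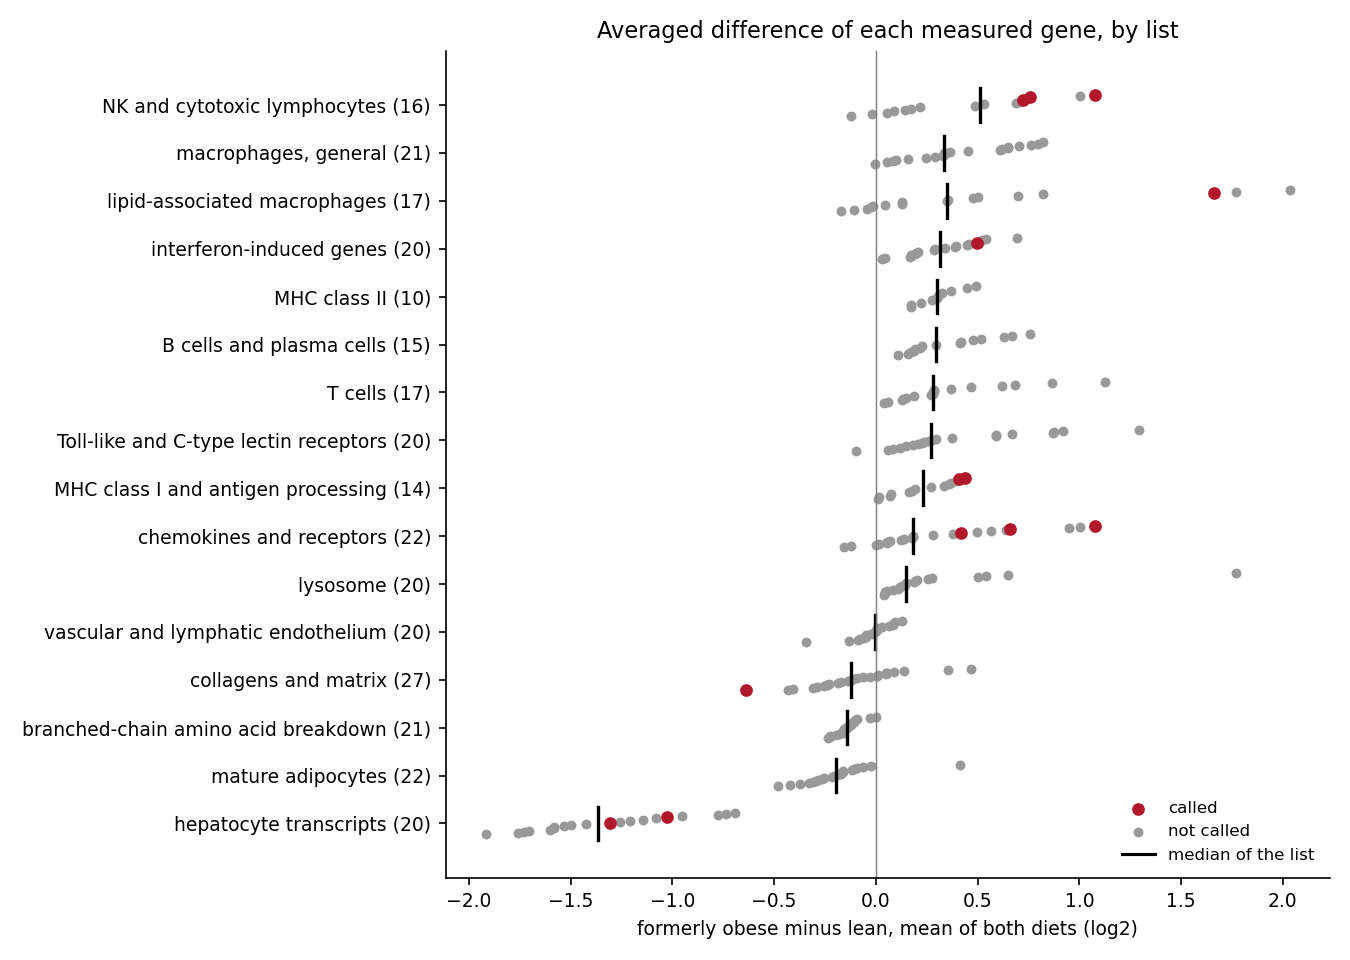
Averaged difference (log2, formerly obese minus lean over both diets) of each measured gene in 16 lists, with called genes in red, other genes in grey and the median of each list as a black bar. The immune lists shown lie mostly right of 0, the adipocyte and hepatocyte lists left of it, and few single genes are called. Immune lists not shown include monocytes and neutrophils (median 0.05, 9 of 15 positive) and resident-type macrophages (0.07, 9 of 14). Regulatory T cells and type 2 innate lymphoid cells had 0.07 (9 of 14), and eosinophils and mast cells 0.11 (12 of 16). Cytokines had 0.04 (14 of 18), complement 0.16 (10 of 15), leukocyte adhesion 0.22 (16 of 17) and dendritic cells 0.25 (10 of 13).

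The averaged comparison called more probe sets than either diet alone. On control diet, formerly obese against lean mice, 0 probe sets were called by limma in the same fit (0%, with 2473 at an unadjusted p under 0.05). With only the 12 arrays of these groups fitted, 0 were called as well. The study, at a false discovery rate under 0.10 and a fold over 1.3, named Vcam1, Lyz1, H2-Q5, Fbn1, Nmb and Gm26523 for this comparison. Why its result differs was not tested. Under 48 h of HFD, formerly obese-HFD against lean-HFD mice, 3 were called (0.00726%), all lower. The comparisons share no array, but both come from the same fit, with a variance pooled over its 24 arrays. Each gene thus has the same SE under both diets, and its p-values there are not independent of each other. Of 112 genes with an unadjusted p under 0.01, a fold over 1.3 and sufficient level on control diet, 96 (85.7%) had the same sign under HFD, against 58.2% of all genes, and 55 (49.1%) had the same sign with an unadjusted p under 0.05 there, against 7.73% of all genes. Of 485 such genes under HFD, 360 (74.2%) had the same sign on control diet and 89 (18.4%) the same sign with an unadjusted p under 0.05, against 4.29% of all genes. Without the genes that followed Alb, 95 of 111 (85.6%) and 273 of 387 (70.5%) had the same sign.

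Of the 124 probe sets, 77 had the larger difference under HFD. Rises were balanced, with 38 of 76 larger under HFD, whereas 39 of 48 falls were larger under HFD. The 127 called probe sets held 117 distinct sets of values, so these are not counts of separate observations. The falls also include the liver-type genes, and the hepatocyte list had a median of -0.62 on control diet and -2.03 under HFD. Whether rises and falls differ in this respect was not tested. The median ratio of the HFD difference to the control diet difference was 1.12. No difference between the diets passed the interaction test (0 called, 0%, with 1904 probe sets at an unadjusted p under 0.05), and 7 of the 124 had an unadjusted interaction p under 0.05, among them Pon1, Ces3b and Serpina1b. Pon1 was at -0.45 on control diet and -2.12 under HFD (limma interaction, adjusted p = 1), and Serpina1b at -0.55 and -1.50 (limma interaction, adjusted p = 1).

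**Figure D4:**
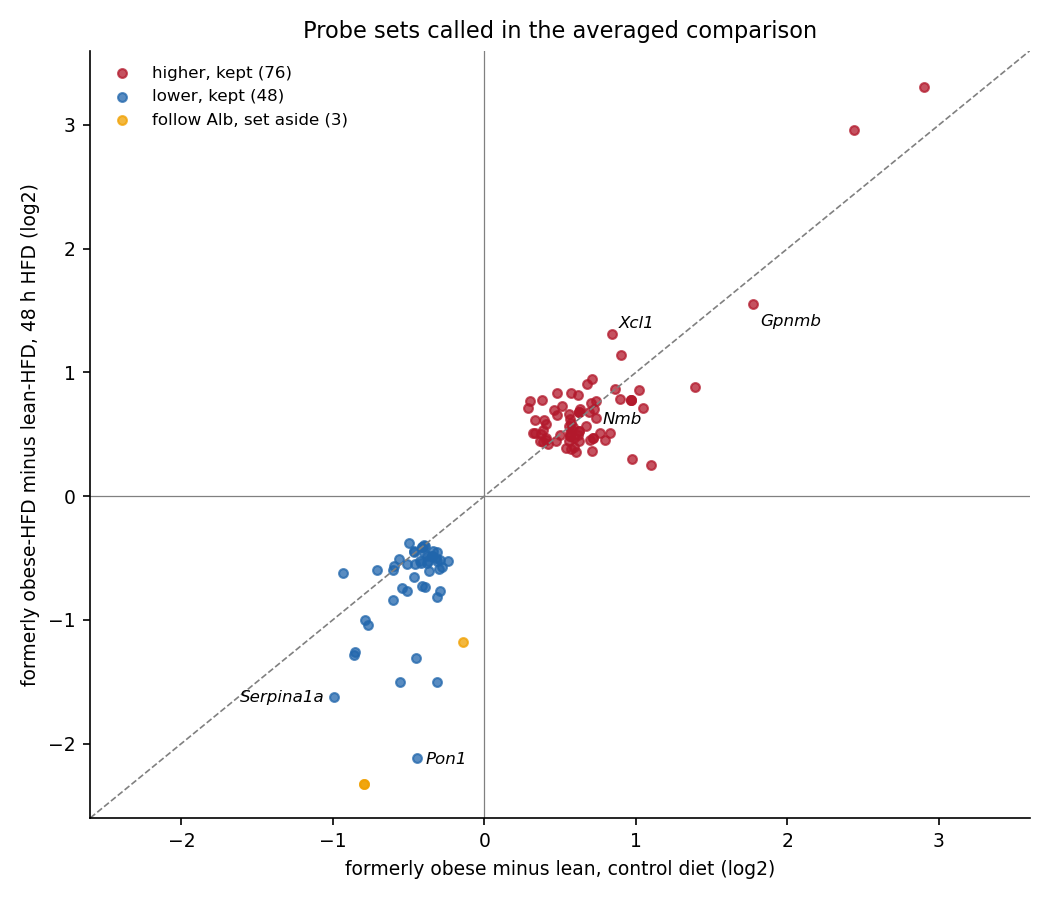
Difference under 48 h of HFD (formerly obese-HFD minus lean-HFD, log2) against the difference on control diet (formerly obese minus lean, log2) for the 127 called probe sets, with the line of equality dashed. All lie in the quadrants of shared sign, which their selection by the mean of the plotted differences favours. Most of those that fell lie below the line.

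The spread of formerly obese-HFD mice was wide for immune genes. Formerly obese-HFD 1 and 2 had the highest values of Xcl1, Vcam1, Cxcl16 and Gpnmb in their group, while formerly obese-HFD 3 and 6 were among the 3 lowest. The mean level of the 21 general macrophage genes ran from 7.58 to 9.26 in formerly obese-HFD mice, against 7.74 to 7.98 in lean-HFD mice, and from 7.96 to 8.94 in formerly obese mice, against 7.79 to 8.14 in lean mice. The number of calls changed with single arrays, from 27 without formerly obese-HFD 2 to 340 without formerly obese-HFD 6. In all 24 fits that left out 1 array, 22 of the 124 probe sets stayed called, among them Nmb, Vcam1, Cxcl16, Slc7a15, Pdgfra, Lyz1, Retnla, Mcam, Serpina1a and Serpina1b. Xcl1 stayed in 23 of 24 (lost without lean-HFD 5) and Wfdc21 in 23 (lost without lean 6). Xcr1 stayed in 22 (lost without lean 6 or formerly obese-HFD 2) and Ackr4 in 21 (lost without these or lean-HFD 5). Tenm4 stayed in 18, Bcar3 and Masp1 in 17, Col15a1 in 16, and Gbp8, Hpgds and Klrc1 in 15. H2-Q5 and Ahnak2 stayed in 14, Irgm1 in 13, Gzma in 10 and Mmp11 in 9. Mmp2, Ffar4 and Ces3b stayed in 7, and Nceh1, Psmb9 and Pon1 in 6.

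Levels in obese mice differed in kind between these genes. Gpnmb had a median of 8.93 in formerly obese mice, 10.78 in obese mice and 7.06 in lean mice, so formerly obese mice lay between the others. Lyz1 did likewise, with medians of 9.46 in formerly obese mice, 8.79 in obese mice and 10.20 in lean mice, and so did Retnla (11.55, 11.02 and 11.93 in the same order). Vcam1 had nearly the same median in formerly obese mice (7.57) and obese mice (7.63), against 6.85 in lean mice. Nmb was highest in formerly obese mice (8.85), against 8.28 in obese mice and 8.14 in lean mice, and Bcar3 and Wfdc21 were lowest in formerly obese mice (8.06 and 9.55), against 9.03 and 11.01 in obese mice and 8.41 and 10.28 in lean mice. These are levels of 6 arrays per group, and obese mice were not tested against the others here.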

How the data were processed

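RNA of gonadal white adipose tissue was amplified, labelled with biotin and measured on Affymetrix arrays for mouse genes with 1 colour, 1 array per sample. The authors deposited log2 expression values per probe set, computed by robust multi-array average (RMA) in Affymetrix Expression Console 1.4.1.46 according to the submitters' processing notes. RMA corrects background, sets all arrays to 1 distribution and compresses low intensities, so differences of dim probe sets are understated. Precision is set by how many arrays each group had, and no scan date or other batch was used here.

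One model with 4 group means was fitted to the 24 arrays of formerly obese, lean, formerly obese-HFD and lean-HFD mice with limma 3.58.1 in R 4.3.3, with moderated variances and two-sided tests. The contrast was the mean of formerly obese minus lean and formerly obese-HFD minus lean-HFD, and p-values were adjusted by Benjamini-Hochberg over 41345 probe sets. The cut-offs (adjusted p under 0.10, fold over 1.3, level over 16) follow those of the study's methods. Probe sets with an absolute Pearson r of 0.5 or more with Alb, over deviations from the group means, were set aside. Of the probe sets, 23521 had 1 gene symbol in the platform annotation, 1820 had several and 16004 had none. Genes were counted by the probe set with 1 symbol and the highest mean. Scripts were tested on simulated data.

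Named genes were the 12 largest folds in each direction and the 6 smallest p among the called genes that met both criteria, the 3 lowest p of each list, genes the study measured, the 5 calls most correlated with Alb and the 5 smallest interaction p, without predicted genes, small RNAs, olfactory receptors and receptor segments. Ccl2, Ccl3, Ccl5, Ccr2, Cxcr6, Col4a2, Eomes, Tbx21, Itga4, Jchain, Klrd1, Klrk1, Nkg7, Lyz2, Nmbr, Fam205a2, 4933409K07Rik, Emp1, C7, Trav9d-3, Ms4a6b, Plcxd3 and 2310001H17Rik, like the unannotated probe sets and genes with several symbols, were named after their values were seen. The members and gene lists were chosen with earlier results of these data known. Alternatives covered the samples fitted, the replicate number as a block, an additive model, variance options, array weights, centring, the level filter, the thresholds, Alb as a covariate and each array left out in turn. The fit without 4 arrays, the screen on the hepatocyte list and the left-out arrays within 1 diet were added after seeing the data.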

Additional observations from a re-analysis of the deposited data

Results flagged for a closer look

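In each of 272 groups of 6 arrays (68 genes), an array was listed when its gap to the nearest other array took up more of the range of its group than Dixon's critical value for 6 arrays allows. There were 18 such cases (6.62%), where chance alone gives about 1 in 20.

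Lean-HFD 3 stood high for 3 of the genes that rose: Nmb at 9.24 (others 8.22 to 8.54), Ahnak2 at 7.88 (others 6.94 to 7.21) and Mmp2 at 8.01 (others 7.25 to 7.41). Mmp2 was also high in formerly obese 6, at 8.27 (others 7.66 to 7.88). Lean 5 was high for the macrophage genes Gpnmb, at 8.02 (others 6.82 to 7.26), and Mmp12, at 7.99 (others 5.34 to 6.24). Psmb9 was low in lean-HFD 1, at 8.32 (others 8.68 to 8.85), while the cathepsin gene Ctss was high there, at 9.88 (others 9.32 to 9.52). Cd3g was low in lean 6, at 4.34 (others 4.83 to 5.12). Among genes that fell, Serpina1b was low in formerly obese-HFD 2, at 5.08 (others 5.98 to 6.37), and Wfdc21 was low in formerly obese-HFD 3, at 8.36 (others 8.67 to 8.77).

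Lean 4, the lean array with the most Alb, was high for Serpina4-ps1, at 5.04 (others 4.01 to 4.22), and for Il6, at 3.92 (others 3.04 to 3.35). Ucp1, the uncoupling protein of brown and beige fat, was far above the rest in lean 6, at 10.11 (others 4.32 to 5.83), and was high in lean-HFD 5, at 6.6 (others 4.26 to 4.86). Plin4 was high in lean 3, at 11.26 (others 10.95 to 11.06). Of the genes with the smallest interaction p, Pyroxd2 was low in lean-HFD 6, at 3.88 (others 4.38 to 4.59), and Mcm9 was high in lean 6, at 5.50 (others 5.19 to 5.30).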

How the results depend on the processing

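Against 127 calls of the averaged comparison, limma called 213 with all 30 arrays in the fit, 236 with array weights, 191 with dim probe sets left out before adjustment, 56 at a fold over 1.5 and 25 at an adjusted p under 0.05. With Alb as a covariate 4 were called and without the 4 arrays with Alb over 11 none (0). An additive model gave 137, trended and robust variances 147, centred arrays 116 (61 higher, 55 lower), probe sets with 1 symbol 127 and no level filter 128. The Alb criterion left 112 at a limit of 0.4, 125 at 0.7, 124 by Spearman correlation and 122 against the hepatocyte list. The limit of 0.4 set aside, among others, Nmb, Gzma, Bcl2l11, Gkn3, Fgd4, Pon1 and Ces3b, Spearman correlation set aside Gzma and kept Serpina4-ps1, and the hepatocyte list set aside Ces3b and Serpina1a. Leaving out 1 array gave 27 to 340 calls. The count was 27 without formerly obese-HFD 2, 33 without lean-HFD 5, 36 without lean 6, 44 without formerly obese-HFD 1, 48 without lean-HFD 2, 50 without lean 5, 63 and 67 without formerly obese 3 and 5, and 77 without formerly obese 6, formerly obese-HFD 4 or lean-HFD 4. It was 212 without lean-HFD 6, 238 without formerly obese-HFD 3 and 340 without formerly obese-HFD 6. Under 48 h of HFD alone, 3 calls became 0 with only the 12 arrays of that diet fitted and 0 to 103 with 1 array left out, the most without lean-HFD 3. The Alb difference ran from -1.69 to -1.19 with 1 array left out. Of the 36 named genes that were called, none reversed in any setting, and 130 of 468 values in other settings and 246 of 864 with 1 array left out lost the call. The causes were not tested.

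With the replicate number as a block, 84 probe sets were called (46 higher, 38 lower), 1 on control diet and 1 for the interaction. Same-numbered arrays correlated by a median of -0.06 to -0.01 in the 4 pairs of groups. Of 6 arrays, 1 or 2 were over 0.1 and 0 or 1 were closest to their own number. These values show no clear pairing by number, but so few arrays cannot exclude a batch shared by same-numbered arrays.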

Other observations

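Several called genes outside the naming rule belong to cytotoxic lymphocytes, dendritic cells and matrix, and were picked after their values were seen. Ctsw, a protease of cytotoxic cells, rose by 0.58 ± 0.13, Ms4a6b, a membrane protein of T cells, by 0.57 ± 0.13 and Fgl2, a secreted fibrinogen-like protein, by 0.56 ± 0.11. A probe set annotated to both Clec9a, the dead-cell receptor of cross-presenting dendritic cells, and Clec1b rose by 0.55 ± 0.11. Among genes of matrix and stroma, matrix Gla protein Mgp rose by 0.48 ± 0.11 and Aebp1, a collagen-binding protein of fibroblasts, by 0.50 ± 0.11. The collagen and matrix list went the other way, with 18 of 27 differences negative (median -0.12) and Col15a1, which fell, as its single call. The progenitor and fibroblast list had 10 of 18 positive differences (median 0.04).

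No respiration gene was called and 17 of 20 had negative differences (median -0.05), and 18 neuropeptide genes, among which Nmb was the single call, had a median of 0.0023. The smallest unadjusted interaction p belonged to genes with opposite signs in the 2 diets: Slc35f3 was at -0.46 on control diet and 0.73 under HFD, and Cdhr1 at -0.23 and 0.24, without passing adjustment.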
